A study of Mus musculus with 11 samples.

Results

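The interleukin-6 family and its shared signalling chain were examined as 10 genes of the 32,285 in the count matrices. They were chosen by name for their roles, with earlier results of these data known. *Il6*, *Osm* and *Lif* encode ligands, *Il6ra*, *Osmr* and *Lifr* encode their receptors, *Il6st* encodes the shared receptor chain gp130, *Jak2* encodes a receptor-bound kinase, *Stat3* encodes the transcription factor and *Socs3* encodes its feedback inhibitor. The raw unique molecular identifiers (UMIs, each counting 1 captured transcript) were summed per library and cell type, and the sums were compared between 4 groups of mice.

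A ligand of this family binds its own receptor, which pairs with gp130, and kinases bound to the receptors then phosphorylate Stat3. Phosphorylated Stat3 enters the nucleus and switches on genes that include *Socs3*, whose protein binds gp130 and its kinases and shuts the signal off. In the brain the pathway is known from microglia, astrocytes and vessels after ischaemia, and it is the known inducer of *Lrg1*, the leucine-rich secreted glycoprotein whose gene was deleted here. The libraries counted transcripts and hold no measure of Stat3 phosphorylation.

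The 11 libraries, each from the right brain of 1 mouse, formed the groups sham + WT (3 libraries), sham + *Lrg1*-/- (3), MCAO/R + WT (2) and MCAO/R + *Lrg1*-/- (3). MCAO/R is middle cerebral artery occlusion by a filament for 1 h followed by reperfusion, whose length was not stated separately for these libraries, and in sham mice the suture did not enter the internal carotid artery. Among its limits the paper names short-term effects at 1 h, without saying whether this is the occlusion or the reperfusion. WT mice were C57BL/6 males of 8–10 weeks, whereas *Lrg1*-/- mice were conventional knockouts in all cells, made on C57BL/6N by removing exon 1 up to the stop codon in exon 2, backcrossed for 4 generations and 3 months old. The matrices of sham + *Lrg1*-/- replicates 1, 2 and 5 and MCAO/R + *Lrg1*-/- replicate 1 held 15500, 9000, 5650 and 8500 barcodes with at least 551 to 770 UMIs each, whereas in the other 7 the lowest count per barcode was 500. Age and substrain cannot be told apart from genotype, nor can this choice of barcodes in the sham groups, while after MCAO/R it applies to 1 of the 3 *Lrg1*-/- libraries. Here *Lrg1*-/- denotes the whole difference between these mice.

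Libraries held 37,159,497 to 171,813,031 UMIs, and 124,491 cells passed the filters, of which 31,999 stayed unnamed. The unnamed share was 4.43% to 15% in the WT libraries and 19.8% to 59.7% in the *Lrg1*-/- libraries, and its part in the results was not tested. Cell types were clusters named from marker genes, such as *P2ry12* and *Tmem119* for microglia-like cells, *Cldn5* and *Flt1* for endothelial-like cells and *Mog* and *Mag* for oligodendrocyte-like cells, and are called by the type alone below. All 8 microglial markers were detected in the microglia of every group, with summed levels of 11130 to 11790 CPM (the gene's UMIs scaled to 1e6 UMIs of that cell type and library) in sham + WT, 8483 to 9803 in sham + *Lrg1*-/-, 4641 to 5145 in MCAO/R + WT and 6327 to 7142 in MCAO/R + *Lrg1*-/-. The libraries of the 2 genotypes stood apart in blood RNA. In microglia the summed level of 6 red blood cell markers was 18.5 to 21.9 CPM in the WT libraries and 6221 to 15550 CPM in the *Lrg1*-/- libraries, although red blood cells had been lysed. Later fits without haemoglobin and mitochondrial genes kept all 71 calls described below. Those fits only took these genes out of the counts and left the same cells in. They therefore cannot show the part of blood RNA or blood cells in the calls, which was not tested. Between 14 and 180 cell barcodes were shared by each of the 55 pairs of libraries, at most 1.24% of the smaller library.

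*Lrg1* itself checked the labels. Over all cells it gave 169, 641 and 245 UMIs in the sham + WT libraries, 16680 and 15565 in the MCAO/R + WT libraries, none in the sham + *Lrg1*-/- libraries and 0, 0 and 1 in the MCAO/R + *Lrg1*-/- libraries. In endothelial cells the *Lrg1* level was 7.34, 24.8 and 7.53 CPM in sham + WT and 442 and 546 CPM in MCAO/R + WT.

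The members differed in the cells that carried them. Levels are given as the mean over the 3 sham + WT libraries ± SD in CPM, they are set against each other within a gene only, and 12 of the tested cell types had enough cells in at least 2 of these libraries. B cells also had enough cells in sham + WT, but no comparison of them could be tested and they are left out. Among the ligands, *Osm* (chr11:4236420-4241026, as all positions here in GRCm38) was a myeloid transcript, with 68.9 ± 11.1 in border-associated macrophages, 50.2 ± 11.4 in monocytes and monocyte-derived macrophages and 26.5 ± 2.80 in microglia. Border-associated macrophages and monocytes overlapped, microglia lay below both, and the other 9 types had 3.09 or less. *Il6* (chr5:30013114-30019981) was low in all types and highest in microglia at 12.5 ± 1.77. Pericytes (9.02 ± 9.20), ciliated ependymal cells (8.65 ± 10.2) and vascular smooth muscle cells (7.69 ± 4.44) varied too much between libraries to be ranked below microglia. *Lif* (chr11:4257557-4272514) reached 6.50 ± 2.93 in border-associated macrophages and 2.13 ± 0.49 in astrocytes, with 0.22 or less in microglia and all other types but monocytes (2.05 ± 3.55).

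The receptors divided between myeloid and vascular cells. *Il6ra* (chr3:89864059-89913196) stood at 270 ± 18.3 in microglia, 223 ± 38.8 in monocytes, 184 ± 12.9 in border-associated macrophages and 104 ± 3.89 in ciliated ependymal cells. Microglia and monocytes overlapped, and the levels went down to 5.52 ± 1.71 in oligodendrocytes. *Osmr* (chr15:6813577-6874969) was a transcript of vessel walls, with 355 ± 18.7 in vascular smooth muscle cells, 244 ± 13.5 in pericytes, 109 ± 5.75 in endothelial cells and 101 ± 23.2 in fibroblast-like cells, the last pair overlapping, against 14.02 ± 2.21 in astrocytes and 2.08 ± 0.28 in microglia. *Lifr* (chr15:7090614-7197489) was spread more evenly. It did not separate fibroblast-like cells (104 ± 55.9), astrocytes (84.2 ± 6.51), endothelial cells (81.9 ± 10.3) and vascular smooth muscle cells (80.7 ± 14.2), and it was lowest in choroid plexus epithelial cells (5.57 ± 1.92). *Il6st* (chr13:112464070-112510086) gave UMIs in all 12 types, from 153 ± 49.96 in fibroblast-like cells to 16.8 ± 3.95 in neurons, and fibroblast-like cells, pericytes and endothelial cells overlapped.

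The signalling genes gave UMIs in all 12 types. In choroid plexus epithelial cells *Stat3* was near the level of free microglial RNA and is not read as expression there. Its median was 9.18% of microglia of the same library against 9.03% for 8 microglial markers. It was above these markers in 7 of 11 libraries. The share of free RNA in *Jak2* and *Il6st* was not tested. *Jak2* (chr19:29251828-29313080) was highest in oligodendrocytes at 122 ± 1.97, above endothelial cells at 102 ± 4.33. *Stat3* (chr11:100885098-100939540) stood at 739 ± 54.2 in microglia and 720 ± 59.7 in vascular smooth muscle cells, which overlapped, at 515 ± 25.5 in pericytes, and at 106 ± 6.09 in oligodendrocytes. *Socs3* (chr11:117966079-117970047) was highest in vascular smooth muscle cells (1040 ± 37.0), fibroblast-like cells (1038 ± 361) and pericytes (811 ± 98.2). Endothelial cells (290.1 ± 26.3), monocytes (278 ± 111), microglia (274 ± 17.5) and border-associated macrophages (261 ± 33.6) did not separate, and oligodendrocytes were lowest at 24.6 ± 7.16. Microglia, which were numerous, held on average over the 3 sham + WT libraries 77.4% of the *Osm*, 74.7% of the *Il6ra* and 59.7% of the *Stat3* UMIs of all cells, while endothelial cells held 54.02% of those of *Osmr*.

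**Figure D1:**
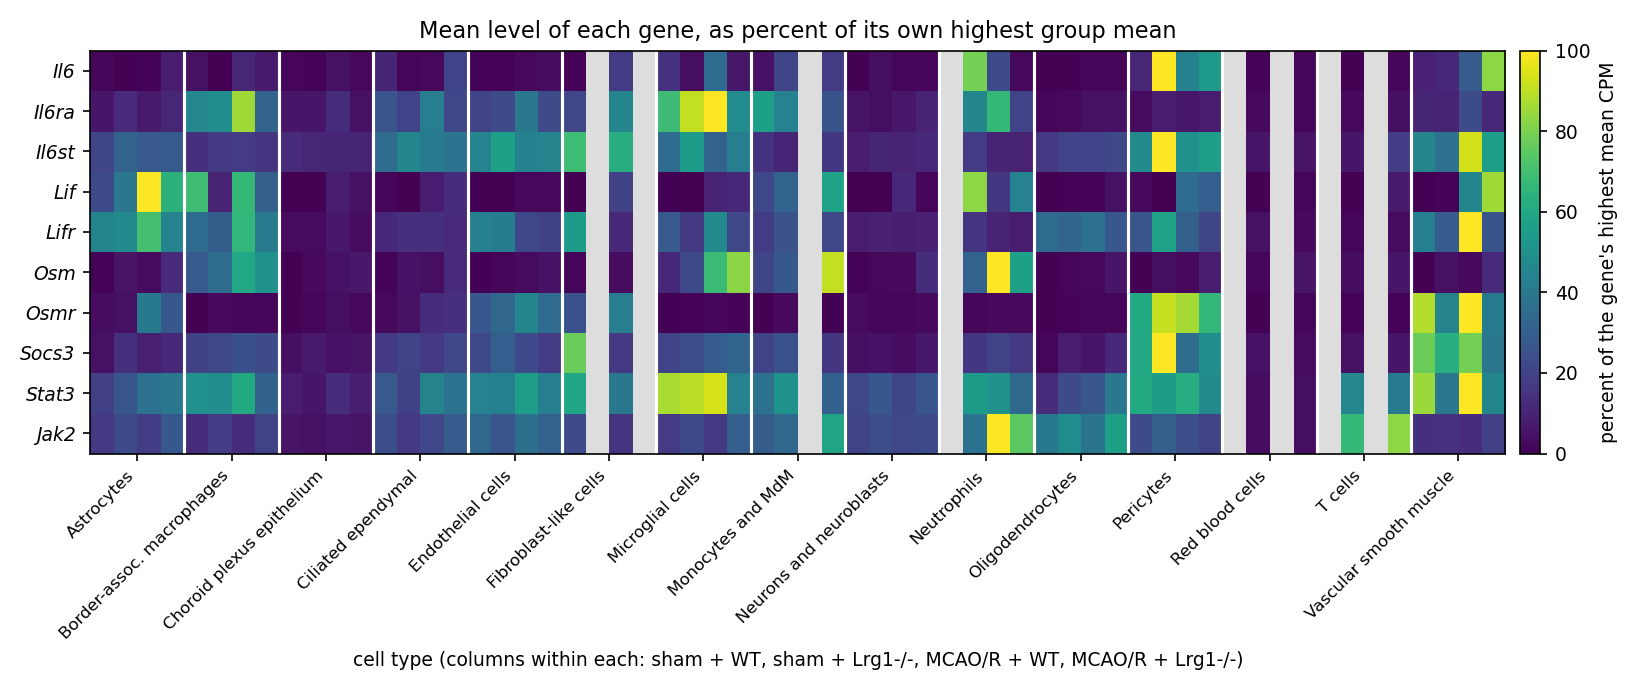
Mean level of each member in each cell type and group, as a percentage of that gene's own highest group mean, so that colours are comparable along a gene and not between genes. Grey marks groups in which fewer than 2 libraries had 20 cells of the type. *Il6ra* and *Stat3* are strong in microglia, *Osm* in microglia, macrophages and neutrophils, and *Osmr* and *Socs3* in cells of the vessel wall.

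Changes were tested with edgeR's quasi-likelihood method on the sums, one fit per cell type over all 4 groups, with Benjamini-Hochberg adjustment over all genes of that cell type. A gene was called when the adjusted p was below 0.05 and the absolute log2 fold change was over 0.361. In the pairs of member and cell type that passed the filter on low counts, MCAO/R + WT against sham + WT gave 18 higher and 1 lower of 99 pairs (19.2%, where 8.93% of all pairs of gene and cell type were called). MCAO/R + *Lrg1*-/- against sham + *Lrg1*-/- gave 8 higher and 6 lower of 118 (11.9%, background 9.2%). MCAO/R + *Lrg1*-/- against MCAO/R + WT gave 7 higher and 14 lower of 100 (21.0%, background 16.3%), and sham + *Lrg1*-/- against sham + WT gave 10 higher and 3 lower of 100 (13%, background 10.2%). The difference between the response to MCAO/R in *Lrg1*-/- and that in WT mice (the interaction) was called in 4 of 92 pairs, all lower (4.35%, background 1.59%). In every comparison but the interaction, these counts include calls that are not read as expression below. They are *Osm* outside the myeloid cells, *Il6* and *Il6ra* in oligodendrocytes, *Il6ra* and *Osmr* in choroid plexus epithelial cells and *Lif* in microglia. Without these calls the member shares would be lower, so their distance from the background is not read as a result. The counts rested in part on single libraries. They were 12 after MCAO/R in WT without MCAO/R + WT replicate 1, 9 in *Lrg1*-/- mice without sham + *Lrg1*-/- replicate 2, and 9 between the MCAO/R groups without MCAO/R + WT replicate 2. Between the sham groups they were 5 to 7 without any 1 library but sham + *Lrg1*-/- replicate 2, where there were 9, and the interactions were 2 without any 1 of sham + WT replicates 1 and 3, sham + *Lrg1*-/- replicates 1 and 5 and MCAO/R + WT replicate 2. Comparisons with a group in common share its libraries, and all come from the same fit of a cell type, so they are not independent of one another. With 2 libraries, MCAO/R + WT set the precision of 3 of them.

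Microglia held more member calls than any other type. In microglia all 10 members passed the filter, and 4, 5, 5, 3 and 2 of them were called in the above order of comparisons, where 22.2%, 35.8%, 22.1%, 22.7% and 7.31% of all genes were called. Of the 9 members that passed in endothelial cells (*Lif* did not), 4, 3, 1, 0 and 1 were called, against backgrounds of 19.5%, 20.9%, 24.6%, 14.0% and 2.36%. Of the 9 in oligodendrocytes (again without *Lif*), 5, 2, 4, 2 and 0 were called, against 23.0%, 12.6%, 27.1%, 13.8% and 2.62%. These oligodendrocyte counts include 3 calls of *Osm* and 1 each of *Il6* and *Il6ra* that were at the level of free microglial RNA and are not read as expression, and the oligodendrocyte median that follows includes the same genes. After MCAO/R in either genotype, the endothelial count also includes a call of *Osm* at that level. In the same comparisons the microglial count includes a call of *Lif* that is not read as expression by microglia. The medians that follow include these genes too. After MCAO/R in WT mice the median log2 fold change of the members was 0.66 in microglia, 0.34 in endothelial cells and 1.10 in oligodendrocytes, where the medians over all genes were 0.06, 0.01 and −0.01. In endothelial cells of the sham groups, where edgeR called none of the 9, the member median was 0.16. The share of members called in microglia, with the calls of *Lif* counted, was 40%, 50%, 50%, 30% and 20%. Without the calls of *Lif* the shares after MCAO/R in either genotype would be lower. Their distance from the background is therefore not read as a result.

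**Figure D2:**
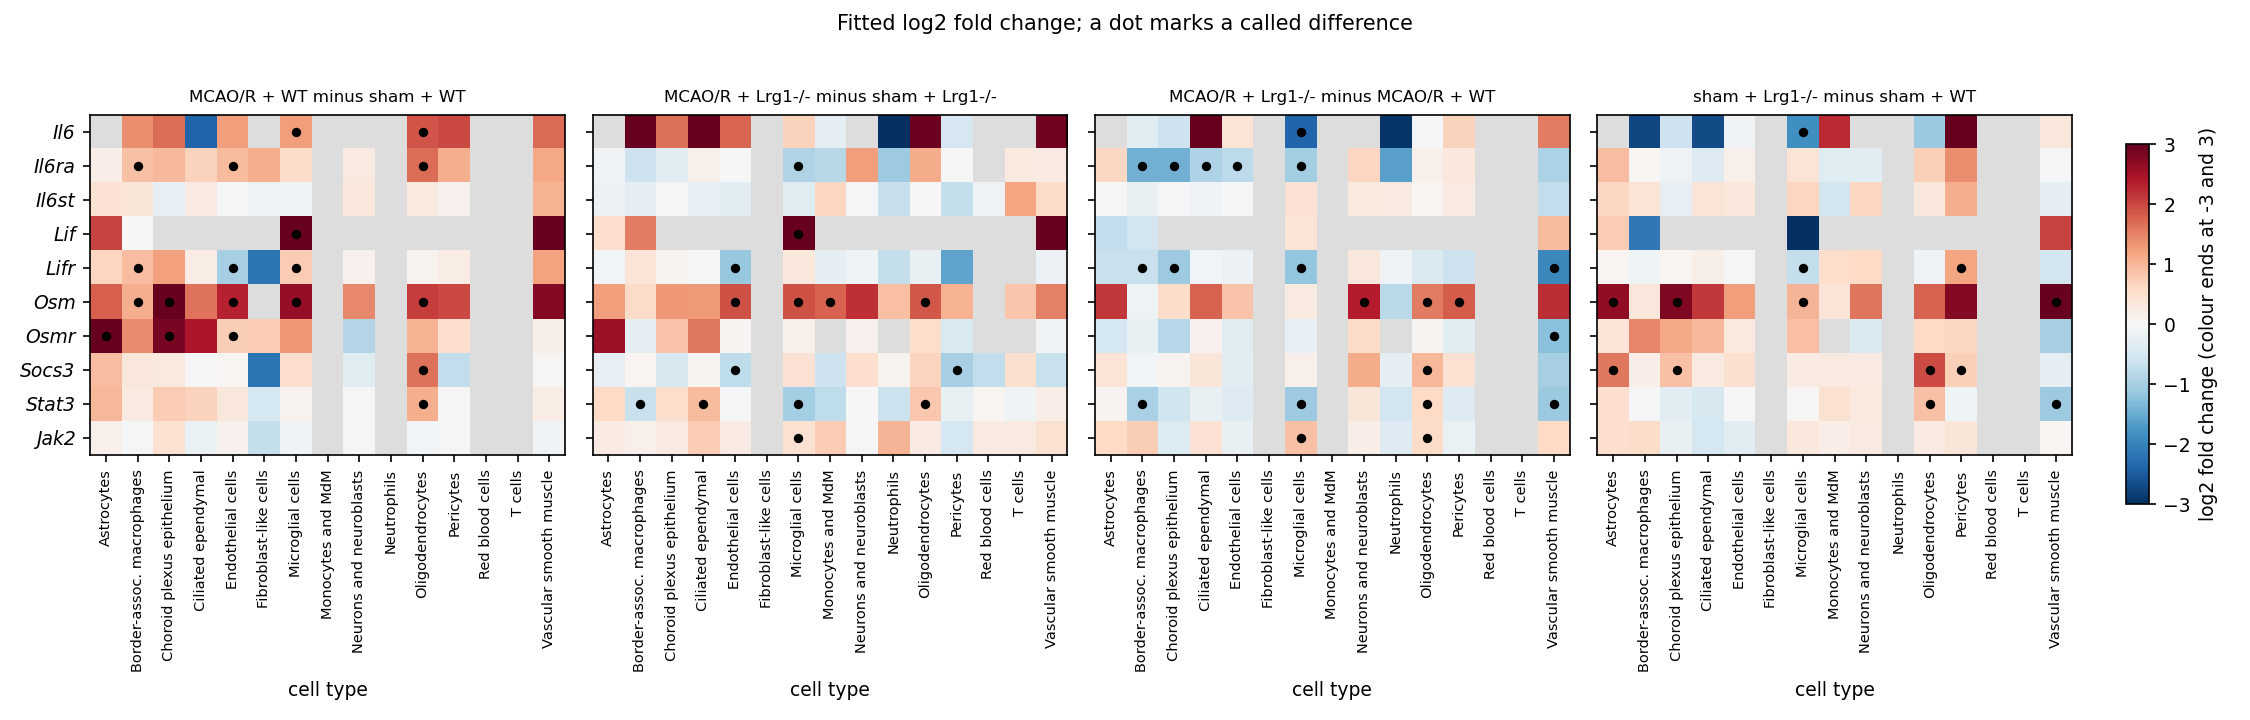
Log2 fold change of each member in each cell type for 4 comparisons (colour, ending at −3 and 3), with a dot where the change was called and grey where the gene was not tested. Red calls of *Osm* and calls in both colours of *Il6ra*, *Lifr* and *Stat3* are seen in several cell types, and the *Il6st* row holds no dot.

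Among the ligands, *Osm*, which encodes oncostatin M, rose in microglia after MCAO/R in both genotypes. Its level there was 25.9, 29.6 and 24.1 CPM in sham + WT, 63.8, 39.1 and 57.9 in sham + *Lrg1*-/-, 221 and 108 in MCAO/R + WT, and 157, 268 and 173 in MCAO/R + *Lrg1*-/-. Every library after MCAO/R lay above every sham library. The log2 fold change was 2.64 ± 0.29 (SE, adjusted p = 4.1e-05) in WT and 1.90 ± 0.28 (adjusted p = 0.000238) in *Lrg1*-/- mice, and both calls held without any 1 library. The 2 MCAO/R groups overlapped and no difference between them was called. Between the sham groups the level was higher in *Lrg1*-/- by 1.01 ± 0.27 (adjusted p = 0.0175), but that call was lost without either of sham + WT replicates 1 and 3 or sham + *Lrg1*-/- replicates 1 and 5, where the log2 fold change ranged from 0.86 to 1.21 over the 6 fits with a highest adjusted p of 0.0893, and it was lost in cells thinned to 1000 UMIs.

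*Osm* behaved likewise in monocytes and monocyte-derived macrophages of *Lrg1*-/- mice. It stood at 53.3 and 79.4 CPM in the 2 sham libraries with at least 20 such cells and at 163, 271 and 225 CPM after MCAO/R, a log2 fold change of 1.76 ± 0.33 (adjusted p = 0.00685). Without sham + *Lrg1*-/- replicate 1 the value was 1.44 and the call was lost (adjusted p = 0.117). In WT mice 1 MCAO/R library had enough of these cells, at 181 CPM, beside 58.4, 54.9 and 37.2 CPM in sham + WT, and no test was made. Neutrophils held 278 and 205 CPM in MCAO/R + WT and 142, 145 and 126 CPM in MCAO/R + *Lrg1*-/-, which did not overlap and gave no call.

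*Osm* was also called outside the myeloid cells, at levels near those of free microglial RNA. Over all cell types it was called higher in 5 of 10 after MCAO/R in WT (50%, background 8.93%) and 4 of 13 in *Lrg1*-/- mice (30.8%, background 9.2%). Between the MCAO/R groups it was called higher in 3 of 11 (27.3%, background 16.3%) and between the sham groups in 4 of 11 (36.4%, background 10.2%). None was lower. These counts include calls that are not read as expression below, among them all 3 between the MCAO/R groups. Relative to microglia of the same library, the median *Osm* level was 4.39% in endothelial cells and 4.54% in oligodendrocytes, where 8 microglial markers stood at medians of 6.44% and 6.77%. In vascular smooth muscle cells the medians were 6.04% for *Osm* and 9.07% for the markers, and in pericytes 6.20% and 11.6%. *Osm* was above the markers in 3 of 11 libraries in endothelial cells and 4 of 11 in oligodendrocytes, whereas in border-associated macrophages it stood at 125% against 24.2% and was above them in 11 of 11. Its calls in endothelial cells, oligodendrocytes, astrocytes, pericytes, vascular smooth muscle cells, choroid plexus epithelial cells and neurons are therefore levels at the background and are not read as expression by these cells. In border-associated macrophages, where *Osm* was far above the background, it stood at 56.8, 78.6 and 71.1 CPM in sham + WT and 204 and 85.4 CPM in MCAO/R + WT, and the rise of 1.09 ± 0.32 (adjusted p = 0.045) became 0.31 (adjusted p = 0.721) without MCAO/R + WT replicate 1, and was also lost without any 1 of the sham + WT libraries.

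*Il6*, the founding ligand, was higher in WT than in *Lrg1*-/- microglia with and without MCAO/R. The levels were 14.5, 11.2 and 11.6 CPM in sham + WT, 4.64, 2.95 and 2.29 in sham + *Lrg1*-/-, 40.9 and 18.6 in MCAO/R + WT, and 5.05, 6.49 and 5.13 in MCAO/R + *Lrg1*-/-. No *Lrg1*-/- library reached the lowest WT library. The log2 fold change of *Lrg1*-/- against WT was −1.83 ± 0.33 in the sham groups (adjusted p = 0.00179) and −2.40 ± 0.30 after MCAO/R (adjusted p = 0.000189), 5.27-fold lower in the latter, and both held in every alternative setting and without any 1 library. After MCAO/R in WT mice *Il6* rose by 1.26 ± 0.28 (adjusted p = 0.00586), a call that rested on MCAO/R + WT replicate 1, without which the log2 fold change was 0.57 (adjusted p = 0.188).

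The *Il6* difference moved with other differences between the same libraries. The summed level of 12 immediate-early genes, which tissue dissociation is known to induce, was 32970 to 38990 CPM in WT microglia and 10690 to 18140 CPM in *Lrg1*-/- microglia, with all 12 genes detected in each group, and red blood cell markers differed as given above. Different clusters also made up the microglia. Clusters 2 (44.9%) and 4 (43.5%) held most of them in sham + WT, clusters 2 (38.0%) and 13.1 (26.9%) in sham + *Lrg1*-/-, clusters 0 (63.4%) and 3 (28.0%) in MCAO/R + WT, and clusters 3 (50.4%) and 0 (29.9%) in MCAO/R + *Lrg1*-/-. The part of these in the microglial results was not tested. In cells of the vessel wall *Il6* had no call between the genotypes. Vascular smooth muscle cells had 11.9, 8.15 and 3.04 CPM in sham + WT, 3.71, 16.8 and 8.86 in sham + *Lrg1*-/-, 42.3 and 6.81 in MCAO/R + WT, and 30.6, 148 and 33.04 in MCAO/R + *Lrg1*-/-, so that the genotypes overlapped in both states. Pericytes had 0.68, 18.9 and 7.48 CPM in sham + WT, 56.3, 92.8 and 106 in sham + *Lrg1*-/-, 69.8 and 5.14 in MCAO/R + WT, and 38.9, 94.8 and 3.42 in MCAO/R + *Lrg1*-/-, and overlapped after MCAO/R only. The sham + *Lrg1*-/- values came from 23 to 47 pericytes per library. Relative to microglia of the same library, *Il6* was above the free microglial markers in 11 of 11 libraries in vascular smooth muscle cells and in 10 of 11 in pericytes. Both types held more *Il6* than microglia in a part of the same libraries. The part of their free RNA in the microglial *Il6* levels was not tested. In oligodendrocytes *Il6* was at a median of 3.54% of microglia against 6.77% for the markers, and its call there after MCAO/R in WT is not read. In ciliated ependymal cells the MCAO/R levels were 2.38 and 0.998 CPM in WT and 33.7, 9.58 and 8.16 in *Lrg1*-/-, higher there without a call. Astrocytes had 0.35 and 1.18 and then 6.69, 6.44 and 6.17 CPM, not tested for low counts. Neutrophils had 36.25 and 2.97 and then 0, 2.51 and 2.74 CPM, lower without a call. Over all cells the MCAO/R groups overlapped, at 21.27 and 6.55 CPM in WT and 4.76, 10.06 and 7.645 in *Lrg1*-/-.

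*Lif*, which encodes leukaemia inhibitory factor, was rare. Microglia gave 3, 3 and 0 *Lif* UMIs in sham + WT, none in sham + *Lrg1*-/-, 55 and 27 in MCAO/R + WT, and 2, 53 and 41 in MCAO/R + *Lrg1*-/-. Levels after MCAO/R were 1.14 and 0.69 CPM in WT and 0.40, 1.58 and 1.23 CPM in *Lrg1*-/- mice, all above the sham libraries. The log2 fold change in WT was 3.98 ± 0.67 (adjusted p = 0.00164). In *Lrg1*-/- mice *Lif* was also called higher (adjusted p = 0.0055), at least 4.87-fold against the limit of 0.22 CPM that 3 UMIs over the whole sham + *Lrg1*-/- group would give. Both calls held without any 1 library. Endothelial cells and oligodendrocytes were below microglia in every MCAO/R library, at 0 to 0.46 and 0.027 to 0.76 CPM. Other cells held higher *Lif* levels than microglia in all or a part of the same libraries after MCAO/R. Astrocytes had 18.1 and 0.74 CPM in MCAO/R + WT and 15.05, 1.84 and 1.23 CPM in MCAO/R + *Lrg1*-/-. Vascular smooth muscle cells had 8.31 and 0.34 CPM in MCAO/R + WT and 1.18, 19.5 and 3.58 CPM in MCAO/R + *Lrg1*-/-, pericytes 6.61 and 0 and then 0, 8.44 and 0 CPM, and border-associated macrophages 7.60 and 4.95 and then 2.34, 6.20 and 0 CPM. Monocytes had 6.35 CPM in the 1 MCAO/R + WT library with enough cells and 5.48, 6.48 and 4.40 CPM in MCAO/R + *Lrg1*-/-. The part of free RNA of these cells in the low microglial levels was not tested, and the microglial calls are not read as expression by microglia. In astrocytes *Lif* had 12, 8 and 6 UMIs in sham + WT and 51 and 5 in MCAO/R + WT, and gave no call.

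**Figure D3:**
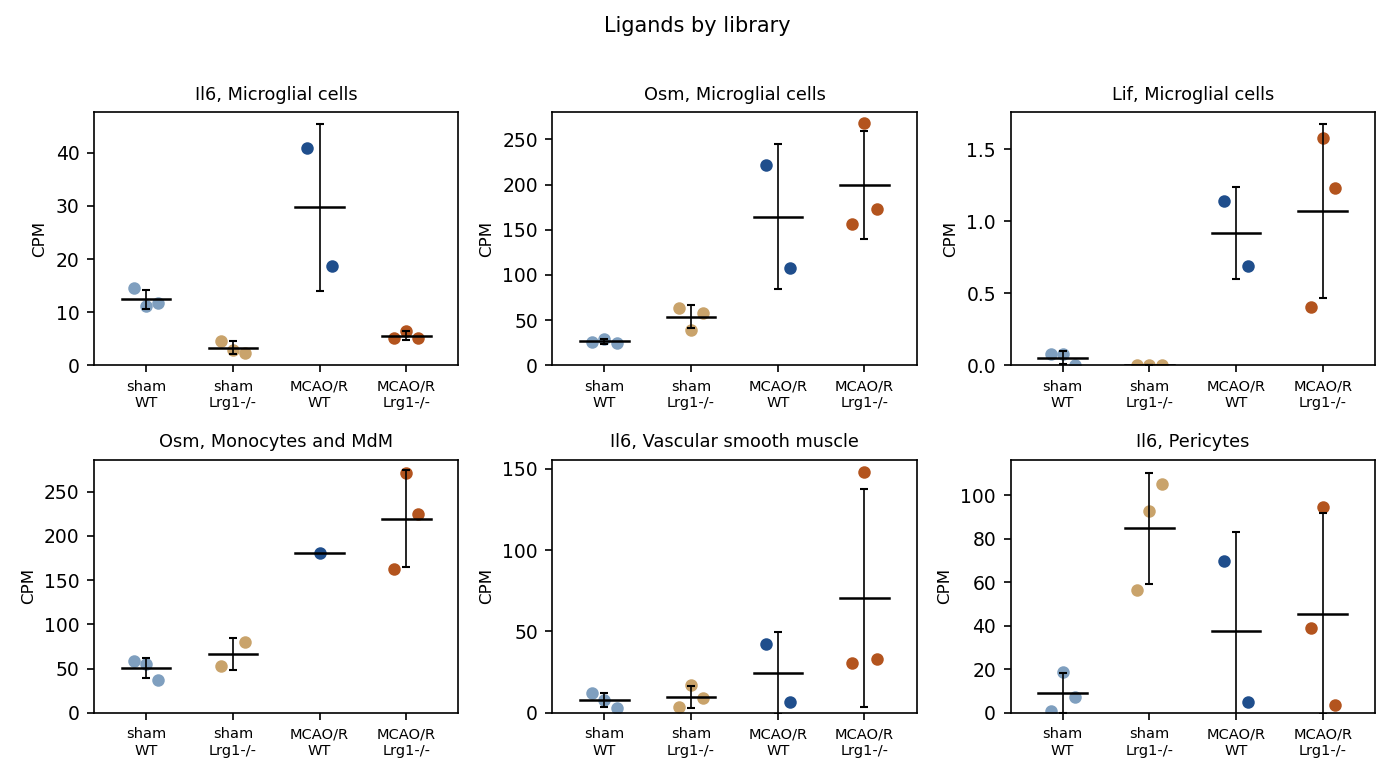
Level in CPM of *Il6*, *Osm* and *Lif* in microglia, *Osm* in monocytes and *Il6* in vascular smooth muscle cells and pericytes, by group (points are libraries, lines are means and bars are SD). *Osm* in microglia is 108 to 268 after MCAO/R against 24.1 to 63.8 in sham libraries, and *Il6* in microglia is 2.29 to 6.49 in the 6 *Lrg1*-/- libraries against 11.2 to 40.9 in the 5 WT libraries.

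Among the receptors, *Il6ra*, which encodes the chain that binds interleukin-6 itself, gave 3 of the 4 called interactions. In microglia it stood at 252, 270 and 289 CPM in sham + WT, 318, 364 and 396 in sham + *Lrg1*-/-, 311 and 479 in MCAO/R + WT, and 163, 159 and 251 in MCAO/R + *Lrg1*-/-. The 3 MCAO/R + *Lrg1*-/- libraries were below all others. *Il6ra* fell after MCAO/R in *Lrg1*-/- mice (log2 fold change −0.91 ± 0.19, adjusted p = 0.0024) and the interaction was −1.46 ± 0.28 (adjusted p = 0.0126), and both held in every alternative setting and without any 1 library. Against MCAO/R + WT the log2 fold change was −1.05 ± 0.21 (adjusted p = 0.00366), a call lost when only the 2 MCAO/R groups were fitted.

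*Il6ra* in border-associated macrophages was likewise lowest in MCAO/R + *Lrg1*-/-, with 171, 183 and 197 CPM in sham + WT, 160, 197 and 224 in sham + *Lrg1*-/-, 265 and 411 in MCAO/R + WT, and 105, 118 and 153 in MCAO/R + *Lrg1*-/-. The groups after MCAO/R did not overlap, and the log2 fold change between them was −1.44 ± 0.22 (adjusted p = 0.00064), with no library deciding the call. The rise after MCAO/R in WT mice (0.88 ± 0.21, adjusted p = 0.0133) was lost without any of sham + WT replicates 1 and 2 and MCAO/R + WT replicate 2 (lowest 0.54, highest adjusted p = 0.161). The interaction of −1.49 ± 0.30 (adjusted p = 0.0483) was lost in 9 of 11 fits without 1 library, the exceptions being MCAO/R + WT replicate 1 and MCAO/R + *Lrg1*-/- replicate 5, with values from −1.78 to −1.16 and a highest adjusted p of 0.158. In sham + *Lrg1*-/- replicate 5 this type held 28 cells.

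In endothelial cells *Il6ra* rose after MCAO/R in WT mice, from 71.3, 89.0 and 84.6 CPM to 154 and 163 CPM. The *Lrg1*-/- libraries lay between 80.1 and 109 CPM in both states, with 91.7, 80.1 and 103 in sham and 80.7, 88.5 and 109 after MCAO/R. The rise in WT was 0.96 ± 0.14 (adjusted p = 0.000455) and the difference after MCAO/R was −0.78 ± 0.14 (adjusted p = 0.00207), and both held in every setting and without any 1 library. The interaction was −0.94 ± 0.19 (adjusted p = 0.025), and it was lost without any of sham + WT replicates 1 and 3, sham + *Lrg1*-/- replicates 1 and 5 and both MCAO/R + WT replicates, with values from −1.07 to −0.86 and a highest adjusted p of 0.0747. Cluster 8 held 77.9% of endothelial cells in MCAO/R + WT and 22.6% in MCAO/R + *Lrg1*-/-, clusters 6 (63.9%) and 21 (23.6%) held most of those in sham + WT, and clusters 21 (44.97%) and 6 (34.5%) most of those in sham + *Lrg1*-/-. The summed red blood cell markers in endothelial cells were 644 to 1641 CPM in WT and 16090 to 26750 CPM in *Lrg1*-/- libraries. The part of either in these values was not tested.

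Over all 11 cell types compared after MCAO/R, *Il6ra* was called lower in *Lrg1*-/- mice in 5 (45.5%, background 16.3%) and higher in none. The count includes the choroid plexus call, which is not read as expression below. The other 2 types were ciliated ependymal cells (−0.93 ± 0.20, adjusted p = 0.0217) and choroid plexus epithelial cells (−1.44 ± 0.46, adjusted p = 0.0302). Ependymal cells gave 177 and 160 CPM in MCAO/R + WT and 60.4, 95.6 and 102 CPM in MCAO/R + *Lrg1*-/-, without overlap, whereas the choroid plexus libraries overlapped, at 24.3 and 78.1 CPM against 9.55, 15.8 and 27.9 CPM. Without MCAO/R + WT replicate 2 the choroid plexus value was −0.45 (adjusted p = 0.587) and the ependymal value −1.01 (adjusted p = 0.202). The choroid plexus call was also lost without MCAO/R + *Lrg1*-/- replicate 1 or 2 and the ependymal call without MCAO/R + WT replicate 1. In oligodendrocytes, where it was lowest, *Il6ra* stood at 7.17, 5.66 and 3.75 CPM in sham + WT and 17.7 and 17.9 CPM in MCAO/R + WT (1.67 ± 0.45, adjusted p = 0.0148), a call lost without sham + WT replicate 3 (1.5, adjusted p = 0.0618) or MCAO/R + WT replicate 2. Relative to microglia of the same library, *Il6ra* was at a median of 3.15% in oligodendrocytes and 7.82% in choroid plexus epithelial cells, where the 8 microglial markers were at 6.77% and 9.03%, and it was above the markers in 1 and 5 of 11 libraries. The oligodendrocyte and choroid plexus calls are therefore at the background and are not read as expression by these cells. In ciliated ependymal cells (37.05% against 11.3% for the markers), endothelial cells (32.9% against 6.44%) and border-associated macrophages (67.8% against 24.2%) *Il6ra* was above the markers in 11 of 11 libraries.

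*Lifr*, which encodes the receptor chain for leukaemia inhibitory factor, moved in opposite directions in microglia and in endothelial cells of WT mice. Microglia had 53.0, 50.3 and 53.6 CPM in sham + WT, 32.3, 35.7 and 26.7 in sham + *Lrg1*-/-, 75.2 and 103 in MCAO/R + WT, and 38.0, 30.0 and 50.7 in MCAO/R + *Lrg1*-/-. Both MCAO/R + WT libraries were above all others, and the sham + WT libraries were above those of sham + *Lrg1*-/-. The difference after MCAO/R was −1.17 ± 0.20 (adjusted p = 0.00142) and held throughout. The rise after MCAO/R in WT (0.77 ± 0.19, adjusted p = 0.0124) rested on MCAO/R + WT replicate 2, without which it was 0.49 (adjusted p = 0.137). The sham difference (−0.71 ± 0.19, adjusted p = 0.0164) was lost without sham + *Lrg1*-/- replicate 1 or 5, at −0.72 with an adjusted p of 0.0578 without replicate 1.

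In endothelial cells *Lifr* fell after MCAO/R in both genotypes. It stood at 70.4, 90.01 and 85.3 CPM in sham + WT and 37.8 and 44.0 in MCAO/R + WT, a log2 fold change of −1.003 ± 0.17 (adjusted p = 0.00123). In *Lrg1*-/- mice it stood at 85.8, 87.2 and 63.1 CPM in sham and 41.8, 30.7 and 37.2 after MCAO/R, a log2 fold change of −1.13 ± 0.16 (adjusted p = 0.000615). Sham and MCAO/R libraries did not overlap, and neither call depended on a setting or a library. Both falls are between sham and MCAO/R cells of mostly different clusters, as given above for endothelial cells, and the part of this was not tested. In vascular smooth muscle cells *Lifr* was lower in *Lrg1*-/- mice after MCAO/R, at 42.9, 58.2 and 44.95 CPM against 137 and 238 CPM (−1.94 ± 0.34, adjusted p = 0.0208). That call was lost without either MCAO/R + WT library (−1.50, adjusted p = 0.19 without replicate 2) and when only the 2 groups were fitted. Cluster 19 held 54.5% of these cells in MCAO/R + *Lrg1*-/- and was not among the 2 largest in MCAO/R + WT, and the part of this in the value was not tested. In border-associated macrophages *Lifr* was 57.8, 74.9 and 63.8 CPM in sham + WT, 127 and 122 in MCAO/R + WT and 79.4, 84.9 and 65.7 in MCAO/R + *Lrg1*-/-. The MCAO/R + WT libraries were highest, but the rise in WT (0.93 ± 0.21, adjusted p = 0.00913) was lost without sham + WT replicate 1 or 3 (0.84, adjusted p = 0.0566 without replicate 1) and the difference after MCAO/R (−0.67 ± 0.22, adjusted p = 0.0468) without any 1 of the 5 libraries (−0.79 to −0.58, highest adjusted p = 0.113).

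The other *Lifr* calls were less secure. In pericytes of the sham groups it gave 50.8, 54.0 and 42.7 CPM in WT and 51.6, 199 and 72.5 CPM in *Lrg1*-/- mice, which overlapped, and the log2 fold change of 1.18 ± 0.34 (adjusted p = 0.0446) became 0.31 (adjusted p = 0.693) without sham + *Lrg1*-/- replicate 2 and was also lost without any 1 of the sham + WT libraries. In choroid plexus epithelial cells it gave 11.5 and 14.5 CPM in MCAO/R + WT and 5.64, 4.82 and 7.64 CPM in MCAO/R + *Lrg1*-/- (−1.09 ± 0.36, adjusted p = 0.0356), lost without any 1 of the 5 libraries but MCAO/R + *Lrg1*-/- replicate 5 (−1.32 to −0.92, highest adjusted p = 0.187). The part of free RNA of other cells in these low choroid plexus levels was not tested.

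*Osmr*, which encodes the oncostatin M receptor, rose in endothelial cells and astrocytes of WT mice after MCAO/R. In endothelial cells it stood at 111, 102 and 113 CPM in sham + WT and 194 and 170 CPM in MCAO/R + WT, without overlap (0.75 ± 0.17, adjusted p = 0.00836). Without MCAO/R + WT replicate 1 the value was 0.65 (adjusted p = 0.0796). Here too the sham and MCAO/R cells were of mostly different clusters. The *Lrg1*-/- libraries overlapped, with 144, 122 and 131 CPM in sham and 108, 182 and 129 CPM after MCAO/R. In astrocytes the 2 MCAO/R + WT libraries differed widely, at 284 and 40.2 CPM beside 15.9, 14.6 and 11.6 CPM in sham + WT. The log2 fold change of 3.51 ± 0.67 (adjusted p = 0.0277) became 1.51 (adjusted p = 0.439) without MCAO/R + WT replicate 1, and the call was also lost without any 1 of the sham + WT libraries. *Lrg1*-/- astrocytes had 11.8, 4.97 and 36.7 CPM in sham and 85.3, 171 and 72.8 CPM after MCAO/R, without overlap and without a call. In choroid plexus epithelial cells *Osmr* went from 2.63, 1.77 and 2.12 to 16.9 and 13.01 CPM in WT (2.84 ± 0.57, adjusted p = 0.0194), a call lost without any 1 of the 5 libraries (2.58 to 2.98, highest adjusted p = 0.165). Vascular smooth muscle cells of the same 2 MCAO/R libraries held 356 and 444 CPM, the part of their free RNA was not tested, and the choroid plexus call is not read as expression there.

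Vascular smooth muscle cells carried the highest *Osmr* levels in sham + WT, and *Osmr* was called lower there in *Lrg1*-/- mice after MCAO/R. The libraries gave 347, 376 and 341 CPM in sham + WT, 201, 211 and 126 in sham + *Lrg1*-/-, 356 and 444 in MCAO/R + WT, and 130, 261 and 110 in MCAO/R + *Lrg1*-/-. All WT libraries were above all *Lrg1*-/- libraries. The difference after MCAO/R was −1.26 ± 0.34 (adjusted p = 0.046), lost without either MCAO/R + WT library or MCAO/R + *Lrg1*-/- replicate 1 or 5, with values from −1.73 to −1.02 and a highest adjusted p of 0.258. *Stat3* in these cells had the same separation, with 651, 760 and 749 CPM in sham + WT, 423, 325 and 273 in sham + *Lrg1*-/-, 861 and 832 in MCAO/R + WT, and 245, 555 and 369 in MCAO/R + *Lrg1*-/-. It was lower in *Lrg1*-/- mice by a log2 fold change of −1.08 ± 0.28 in the sham groups (adjusted p = 0.0475), lost without any 1 of the 6 libraries (−1.27 to −0.94, highest adjusted p = 0.183), and of −1.12 ± 0.30 after MCAO/R (adjusted p = 0.0452), lost without any 1 of the 5 but MCAO/R + *Lrg1*-/- replicate 2 (−1.44 to −0.87, highest adjusted p = 0.228). In vascular smooth muscle cells the summed red blood cell markers were 16.6 to 116 CPM in WT and 21300 to 87940 CPM in *Lrg1*-/- libraries and the summed microglial markers 227 to 1045 CPM in WT and 574 to 2412 CPM in *Lrg1*-/- libraries. Cluster 19 held 54.02% of these cells in sham + *Lrg1*-/- and 20.2% in sham + WT, where cluster 18.3 was the largest with 23.1%, and 54.5% in MCAO/R + *Lrg1*-/-. Their part in these values was not tested.

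**Figure D4:**
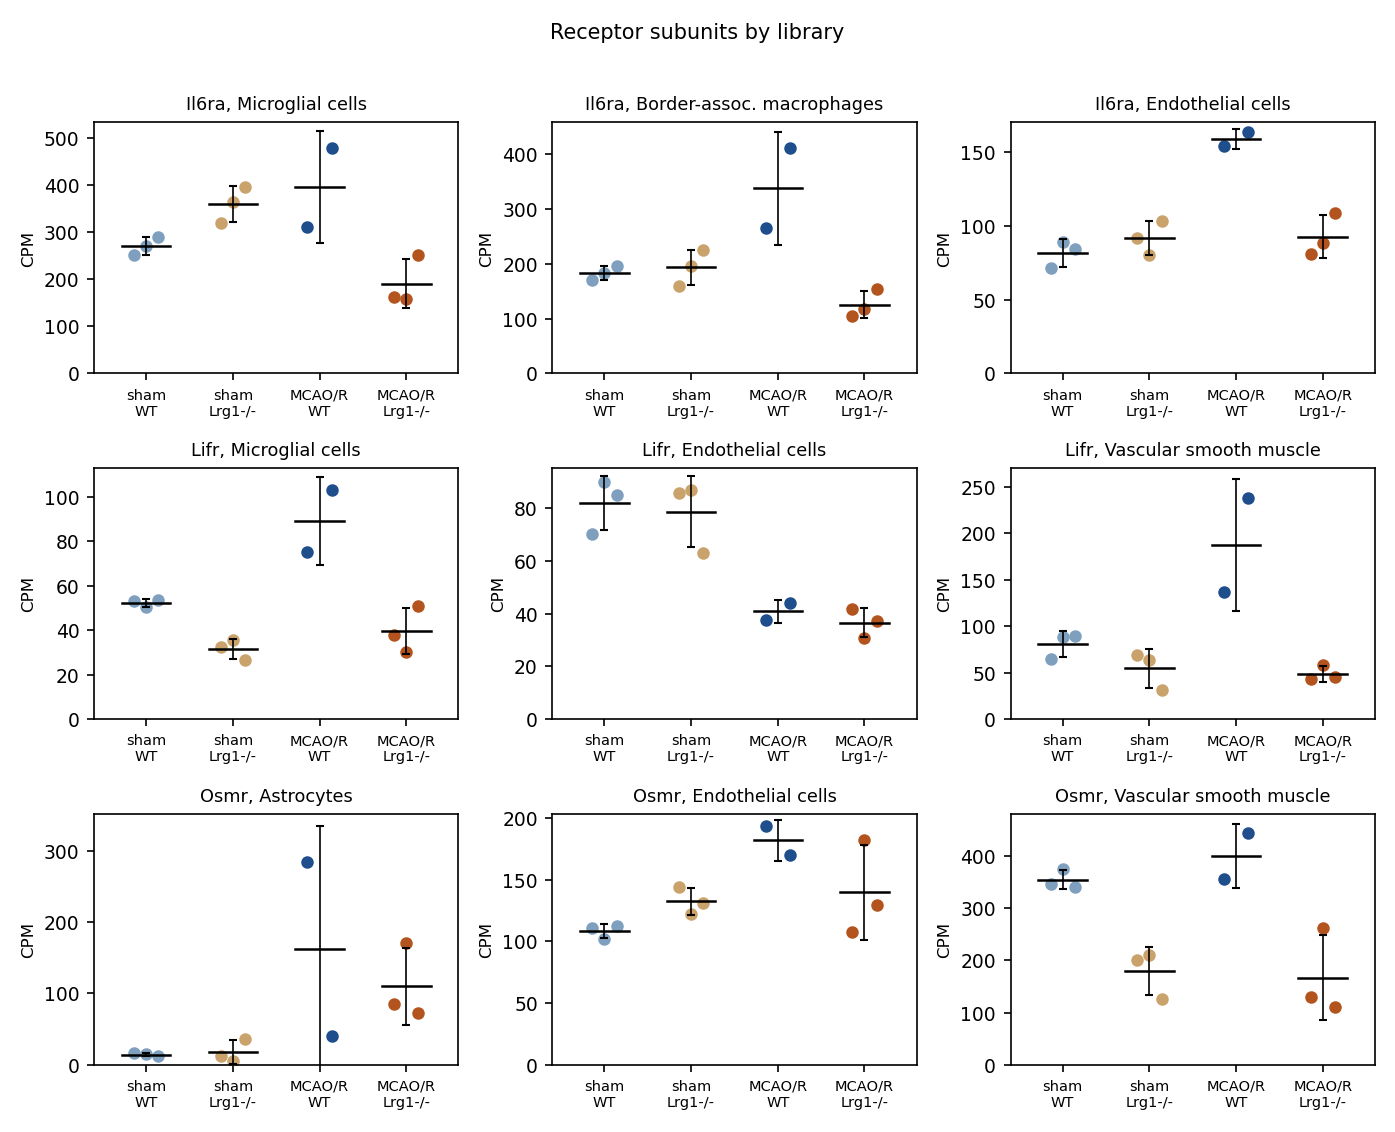
Level in CPM of *Il6ra* in microglia, border-associated macrophages and endothelial cells, of *Lifr* in microglia, endothelial and vascular smooth muscle cells, and of *Osmr* in astrocytes, endothelial and vascular smooth muscle cells, by group (points are libraries, lines are means and bars are SD). *Il6ra* in microglia is 159 to 251 in MCAO/R + *Lrg1*-/- and 252 to 479 in the other groups, and *Lifr* in endothelial cells is 30.7 to 44.0 after MCAO/R and 63.1 to 90.01 in sham libraries.

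*Il6st*, the gp130 chain that all these receptors share, had no call. Over 57 tests edgeR called none, 5 had an unadjusted p below 0.05, the lowest adjusted p was 0.0506, and DESeq2 called 1 of 57. Log2 fold changes ranged from −0.75 to 1.17 over the tests other than those of the interaction. In microglia *Il6st* stood at 86.9, 42.1 and 104 CPM in sham + WT, 112, 139 and 113 in sham + *Lrg1*-/-, 89.1 and 51.8 in MCAO/R + WT and 95.5, 107 and 82.4 in MCAO/R + *Lrg1*-/-. The sham + WT libraries thus spanned much of the range of the other groups.

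*Jak2*, the kinase, was higher in microglia of *Lrg1*-/- mice after MCAO/R. The libraries gave 52.9, 56.0 and 51.4 CPM in sham + WT, 73.1, 56.9 and 71.3 in sham + *Lrg1*-/-, 53.1 and 46.3 in MCAO/R + WT, and 104, 77.9 and 92.9 in MCAO/R + *Lrg1*-/-. The last group lay above all others, and its log2 fold change against MCAO/R + WT was 0.88 ± 0.15 (adjusted p = 0.00159). This held in every setting and without any 1 library. Blood RNA, the immediate-early sum and the clusters of microglia, given above, differed between the same groups. Their part in the microglial *Jak2* values, as that of free RNA, was not tested. The rise after MCAO/R in *Lrg1*-/- mice was smaller (0.45 ± 0.14, adjusted p = 0.0207) and was lost without sham + *Lrg1*-/- replicate 2 (0.33, adjusted p = 0.108) or MCAO/R + *Lrg1*-/- replicate 1. Oligodendrocytes gave 122 and 109 CPM in MCAO/R + WT and 199, 147 and 169 CPM in MCAO/R + *Lrg1*-/- (0.56 ± 0.14, adjusted p = 0.012), a call lost without MCAO/R + WT replicate 2 (0.46, adjusted p = 0.141).

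*Stat3*, the transcription factor, moved in opposite directions in microglia and in oligodendrocytes. In microglia it stood at 790, 682 and 744 CPM in sham + WT, 809, 730 and 736 in sham + *Lrg1*-/-, 703 and 887 in MCAO/R + WT, and 339, 367 and 422 in MCAO/R + *Lrg1*-/-. The first 3 groups overlapped, and the MCAO/R + *Lrg1*-/- libraries were well below them. *Stat3* fell after MCAO/R in *Lrg1*-/- mice (−1.01 ± 0.13, adjusted p = 0.000112), was lower than in MCAO/R + WT (−1.08 ± 0.14, adjusted p = 0.000225), and had an interaction of −1.12 ± 0.19 (adjusted p = 0.00673). All 3 calls held in every setting and without any 1 library. Border-associated macrophages gave 417, 412 and 454 CPM in sham + WT, 436, 459 and 353 in sham + *Lrg1*-/-, 488 and 542 in MCAO/R + WT, and 194, 260 and 336 in MCAO/R + *Lrg1*-/-, the last again below all others (−0.97 ± 0.20 against MCAO/R + WT, adjusted p = 0.00438, with no library deciding it). The fall after MCAO/R in *Lrg1*-/- border-associated macrophages (−0.67 ± 0.19, adjusted p = 0.0317) was lost without replicate 1 or 2 of either *Lrg1*-/- group (−0.86 to −0.51, highest adjusted p = 0.104). The 12 immediate-early genes summed to 33580 to 40340 CPM in border-associated macrophages of MCAO/R + WT and 9765 to 12650 CPM in those of MCAO/R + *Lrg1*-/-, and their part in these results, as that of free RNA and of the microglial clusters named above, was not tested.

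In oligodendrocytes *Stat3* rose after MCAO/R in both genotypes and was higher in *Lrg1*-/- mice. The libraries gave 113, 102 and 102 CPM in sham + WT, 173, 207 and 204 in sham + *Lrg1*-/-, 240 and 212 in MCAO/R + WT, and 331, 342 and 344 in MCAO/R + *Lrg1*-/-, and none of the groups overlapped. The log2 fold change after MCAO/R was 1.10 ± 0.11 in WT (adjusted p = 7e-06) and 0.81 ± 0.10 in *Lrg1*-/- mice (adjusted p = 0.000364), and between the sham groups it was 0.87 ± 0.10 (adjusted p = 0.000377). These 3 held in every setting and without any 1 library. The difference after MCAO/R (0.59 ± 0.11, adjusted p = 0.00216) became 0.48 (adjusted p = 0.0505) without MCAO/R + WT replicate 2, and was also lost when doublets were kept. Cluster 20 held 67.6% of oligodendrocytes in sham + WT and 49.95% in sham + *Lrg1*-/-, cluster 7 82.9% in MCAO/R + WT, and 39.4% in MCAO/R + *Lrg1*-/-, where another cluster held 29.0%. In oligodendrocytes the immediate-early sum was 1921 to 2503 CPM in sham + WT, 2939 to 3549 in MCAO/R + WT and 3350 to 6365 in the *Lrg1*-/- libraries, the summed red blood cell markers were 14.6 to 26.0 CPM in WT and 7675 to 19330 CPM in *Lrg1*-/- libraries, and the summed microglial markers were 173 to 436 CPM in WT and 520 to 1169 CPM in *Lrg1*-/- libraries. Their part in these results was not tested.

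*Socs3*, the feedback inhibitor, was called in 3 comparisons of oligodendrocytes and in none of microglia by edgeR. In oligodendrocytes it stood at 32.9, 20.2 and 20.8 CPM in sham + WT, 63.5, 89.4 and 148 in sham + *Lrg1*-/-, 79.2 and 73.6 in MCAO/R + WT, and 120, 189 and 143 in MCAO/R + *Lrg1*-/-. The sham + WT libraries lay below all others. The log2 fold change was 1.63 ± 0.28 after MCAO/R in WT (adjusted p = 0.000765) and 1.96 ± 0.28 between the sham groups (adjusted p = 0.00109), and both held throughout. The difference after MCAO/R (0.99 ± 0.28, adjusted p = 0.0212) was lost without either MCAO/R + WT library or MCAO/R + *Lrg1*-/- replicate 2, with values from 0.79 to 1.07 over the 5 fits and a highest adjusted p of 0.127. Relative to microglia of the same library, *Socs3* in oligodendrocytes was at 7.23% to 11.8% in sham + WT, where the 8 microglial markers were at 2.77% to 3.72%, and over all libraries at a median of 24.2% against 6.77%, above the markers in 11 of 11. *Stat3* was at a median of 27.7% and likewise above them in 11 of 11. This check covers free microglial RNA only. *Socs3* was highest in cells of the vessel wall, and the part of free RNA of those cells and of unnamed cells in either gene was not tested. The red blood cell and microglial markers, the immediate-early sum and the clusters given for oligodendrocytes above moved with *Socs3* too, and their part was not tested. Microglia had 280, 254 and 287 CPM in sham + WT, 358, 280 and 332 in sham + *Lrg1*-/-, 477 and 304 in MCAO/R + WT, and 373, 564 and 370 in MCAO/R + *Lrg1*-/-. All MCAO/R libraries were above all sham + WT libraries, but the log2 fold changes after MCAO/R were 0.51 ± 0.21 in WT (adjusted p = 0.0973) and 0.43 ± 0.19 in *Lrg1*-/- mice (adjusted p = 0.091), 2 comparisons with an unadjusted p below 0.05.

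In endothelial cells *Socs3* fell after MCAO/R in *Lrg1*-/- mice, from 418, 407 and 380 CPM to 182, 316 and 215 CPM (−0.75 ± 0.18, adjusted p = 0.0108). The call held without any 1 library and was lost in cells thinned to 1000 UMIs. The sham cells were mostly of clusters 21 and 6 and those after MCAO/R of others, cluster 8 being the largest with 22.6%, and the part of this was not tested. In WT mice the libraries overlapped, with 283, 268 and 319 CPM in sham and 347 and 259 CPM after MCAO/R. Pericytes of the sham groups gave 816, 906 and 710 CPM in WT and 1131, 1211 and 1687 CPM in *Lrg1*-/- mice (0.72 ± 0.20, adjusted p = 0.0356). This was lost without any 1 of the sham + WT libraries or sham + *Lrg1*-/- replicate 5, with values from 0.53 to 0.84 and a highest adjusted p of 0.155. After MCAO/R the *Lrg1*-/- pericytes gave 806, 599 and 608 CPM, below their sham libraries (−1.01 ± 0.21, adjusted p = 0.0161), a call lost without sham + *Lrg1*-/- replicate 5 or MCAO/R + *Lrg1*-/- replicate 2 or 5 (−1.15 to −0.81, highest adjusted p = 0.105).

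The remaining calls of *Socs3* and *Stat3* were lost without single libraries. *Socs3* in astrocytes of the sham groups was 73.5, 36.5 and 75.3 CPM in WT and 139, 109 and 304 CPM in *Lrg1*-/- mice (1.58 ± 0.38, adjusted p = 0.0451), lost without any 1 of the 6 libraries but sham + *Lrg1*-/- replicate 2 (1.002 to 1.82, highest adjusted p = 0.189). In choroid plexus epithelial cells the sham libraries overlapped, at 32.0, 47.8 and 80.5 CPM in WT and 72.2, 102 and 123 CPM in *Lrg1*-/- mice (0.89 ± 0.27, adjusted p = 0.0299), and the call was lost without replicate 1 or 2 of sham + WT or 2 or 5 of sham + *Lrg1*-/- (0.63 to 1.29, highest adjusted p = 0.126). *Stat3* in ciliated ependymal cells rose from 164, 146 and 195 CPM to 232, 360 and 377 CPM after MCAO/R in *Lrg1*-/- mice (0.95 ± 0.23, adjusted p = 0.0495), lost without any 1 of the 6 libraries but MCAO/R + *Lrg1*-/- replicate 1 (0.82 to 1.13, highest adjusted p = 0.157).

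**Figure D5:**
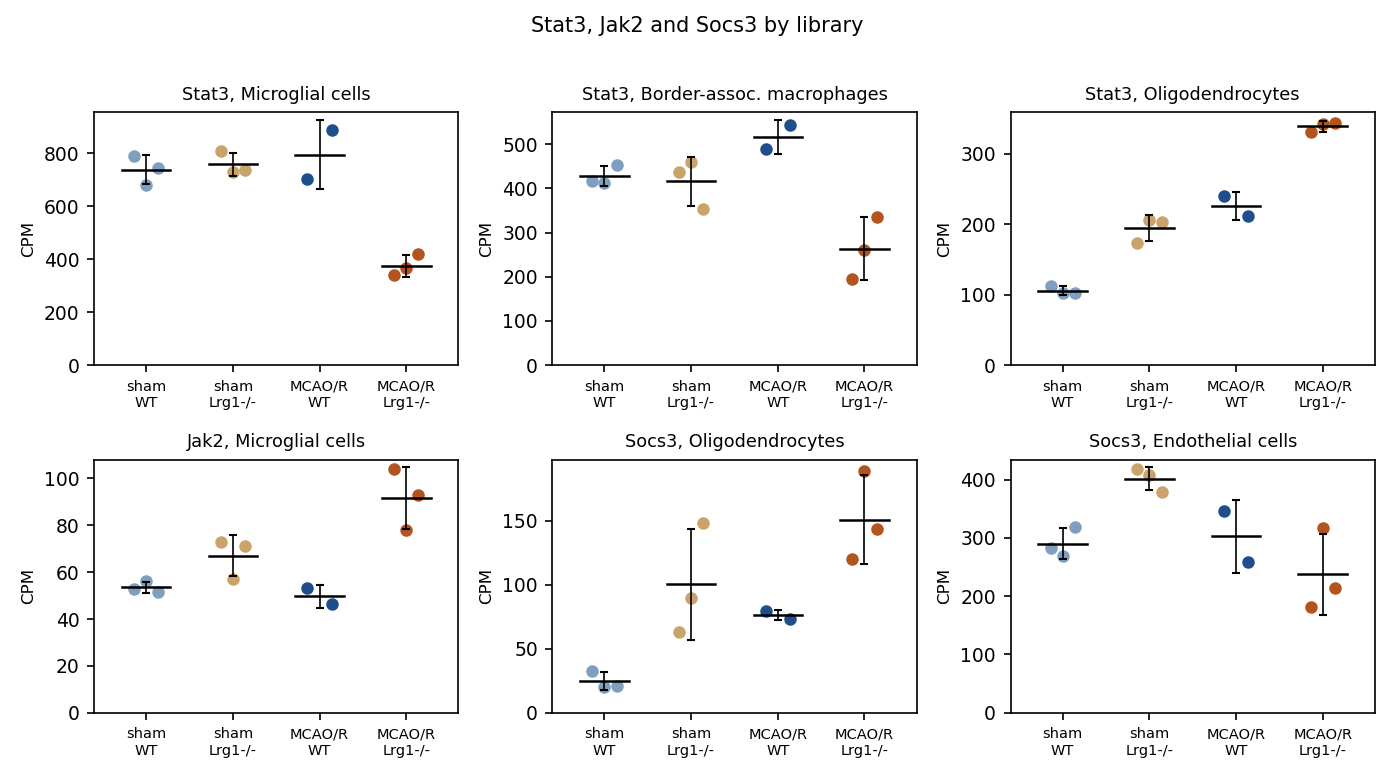
Level in CPM of *Stat3* in microglia, border-associated macrophages and oligodendrocytes, *Jak2* in microglia, and *Socs3* in oligodendrocytes and endothelial cells, by group (points are libraries, lines are means and bars are SD). *Stat3* is 339 to 422 in microglia of MCAO/R + *Lrg1*-/- and 682 to 887 in the other groups, and in oligodendrocytes it is lowest in sham + WT (102 to 113) and highest in MCAO/R + *Lrg1*-/- (331 to 344).

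The *Socs3* promoter is shown because, among the members with a RefSeq promoter entry (all but *Osm*), it was the one that held the pattern TTCNNNGAA, the form of site that Stat proteins are known to bind. An entry runs from 250 bases before to 50 bases after a RefSeq start. Of the members and *Lrg1*, 10 had an entry, and 1 of these held the motif, as did 2306 of 32,851 promoters (7.02%). The stretch below lies at chr11:117969452-117969580 on the minus strand of GRCm38.p6, the motif is in capitals at chr11:117969512-117969520, 154 to 146 bases before the RefSeq start, and the pattern, though not the bases between its ends, reads alike on both strands. The match describes these letters and was not tested for binding. The gene span given above begins farther upstream than the RefSeq start, so the motif lies inside that span.
Socs3: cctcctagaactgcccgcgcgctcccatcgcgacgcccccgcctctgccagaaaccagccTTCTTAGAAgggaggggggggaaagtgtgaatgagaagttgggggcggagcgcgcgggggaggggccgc

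The genes with the pattern most like *Socs3* and *Osmr* were sought by Pearson's r of log2(CPM + 1) group means over 52 pairs of cell type and group, among 15,577 genes. For *Socs3* they were *Junb* (0.870), *Rbpms* (0.859), *Gadd45b* (0.852), *Mafk* (0.848) and *Myo1c* (0.846). For *Osmr* they were *Col4a1* (0.944), *Col4a2* (0.942), *Akap12* (0.924), *Prss23* (0.907) and *Lamb2* (0.903). *Junb* encodes an immediate-early transcription factor, and *Col4a1*, *Col4a2* and *Lamb2* encode basement membrane proteins. The pairs share libraries, so these values are descriptions.

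A part of the genes known to be induced by Stat3 was called after MCAO/R, mostly higher, in both genotypes. The list was chosen with earlier results of these data known. The part of free RNA in its calls over the cell types was not tested. The distance of its shares from the background is therefore not read as a result. Of 20 such genes without *Lrg1*, 71 pairs of gene and cell type were higher and 4 lower of 213 in WT mice (35.2%, where the background was 8.93%), and 62 were higher and 3 lower of 257 in *Lrg1*-/- mice (25.3%, background 9.2%). In microglia 14 were higher and none lower of 20 in WT and 12 were higher and none lower of 20 in *Lrg1*-/- mice, where 22.2% and 35.8% of all genes were called in either direction. *Nfil3*, a transcription factor gene, rose from 6.06 to 54.8 CPM in WT microglia (3.18 ± 0.33, adjusted p = 2.9e-05) and from 11.0 to 69.4 CPM in *Lrg1*-/- microglia (2.70 ± 0.35, adjusted p = 0.000128). *Lcn2*, which encodes lipocalin 2, stood at 0.31 CPM in sham + WT and 79.3 CPM in MCAO/R + WT microglia, but at 14.95 and 3396 CPM in endothelial cells. *Serpina3n*, a protease inhibitor gene, stood at 0.062 and 8.85 CPM in those microglia and at 0.13 and 277 CPM in endothelial cells. The microglial levels of this pair are not read as expression by microglia. Without this pair of genes, a tally chosen after seeing the data, 52 pairs were higher and 4 lower of 192 in WT (29.2%) and 45 were higher and 3 lower of 230 in *Lrg1*-/- mice (20.9%), and in microglia 12 and 10 of 18 were higher and none lower.

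Between the MCAO/R groups the list was called at a share near the background. Over all cell types 30 pairs were higher and 9 lower in *Lrg1*-/- mice of 215 (18.1%, background 16.3%), and in microglia 2 were higher and 4 lower of 20, where 22.1% of all genes were called. *Cebpd*, a transcription factor gene of the acute-phase response, was lower in MCAO/R + *Lrg1*-/- microglia (50.8 against 117 CPM, −1.19 ± 0.19, adjusted p = 0.00117), as were *Junb* (−0.90 ± 0.18) and *Myc* (−0.79 ± 0.17). The genes named here are all lower ones, whereas most called pairs over all cell types were higher. The immediate-early sum was also lower in *Lrg1*-/- microglia, as given above, and its part in these values was not tested. In oligodendrocytes 6 were higher and none lower of 20 in this comparison, where 27.1% of all genes were called. Between the sham groups 29 pairs were higher and 3 lower in *Lrg1*-/- mice of 215 (14.9%, background 10.2%). The interaction was called in 2 pairs higher and 2 lower of 198 (2.02%, background 1.59%).

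Of the 9 other Jak and Stat genes, 2 pairs were higher and 6 lower of 88 in MCAO/R + *Lrg1*-/- against MCAO/R + WT (9.09%, background 16.3%). *Jak1*, a kinase gene of this receptor family, was lower in microglia (439 against 899 CPM, −1.03 ± 0.14, adjusted p = 0.000401) and in border-associated macrophages (223 against 804 CPM, −1.84 ± 0.20). Over the other comparisons this list gave 3 higher and 6 lower of 87 after MCAO/R in WT (10.3%, background 8.93%), 3 higher and 8 lower of 106 in *Lrg1*-/- mice (10.4%, background 9.2%), 2 higher and 7 lower of 90 between the sham groups (10%, background 10.2%), and 1 lower of 82 for the interaction (1.22%, background 1.59%). These shares are near the background. That 1 was *Stat5a* in microglia (−1.40 ± 0.23, adjusted p = 0.00673), which had been higher in sham + *Lrg1*-/- than in sham + WT (33.3 against 11.5 CPM, 1.55 ± 0.16). The *Stat5a* interaction was lost in cells thinned to 1000 UMIs.

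Of the 12 inhibitor genes besides *Socs3*, 5 pairs were higher and 12 lower of 121 in MCAO/R + *Lrg1*-/- against MCAO/R + WT (14.0%, background 16.3%). In microglia *Pias1*, which encodes an inhibitor of activated Stat proteins, was at 188 against 390 CPM (−1.06 ± 0.13, adjusted p = 0.000199) and *Ptpn2*, a phosphatase gene, at 101 against 173 CPM (−0.78 ± 0.11). *Cish*, another Stat-induced inhibitor, rose in WT microglia after MCAO/R (2.71 to 8.46 CPM, 1.64 ± 0.22). In oligodendrocytes *Socs6* and *Ptpn11*, a phosphatase gene, rose after MCAO/R in WT mice (1.48 ± 0.14 and 1.08 ± 0.11) and were lower in MCAO/R + *Lrg1*-/- than in MCAO/R + WT (−1.58 ± 0.14 and −0.96 ± 0.11). The list gave 7 higher and 1 lower of 122 after MCAO/R in WT (6.56%, background 8.93%), 4 higher and 5 lower of 144 in *Lrg1*-/- mice (6.25%, background 9.2%), 2 higher and 11 lower of 123 between the sham groups (10.6%, background 10.2%), and 1 higher and 3 lower of 116 for the interaction (3.45%, background 1.59%).

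Of the 7 other ligands tested, 2 pairs were higher and 3 lower of 39 after MCAO/R in WT (12.8%), 4 higher and 2 lower of 40 in *Lrg1*-/- mice (15%), 7 higher and 1 lower of 38 between the MCAO/R groups (21.1%), 3 higher and 2 lower of 38 between the sham groups (13.2%), and none of 37 for the interaction by edgeR. The backgrounds in this order are 8.93%, 9.2%, 16.3%, 10.2% and 1.59%, here and for the lists that follow. *Ebi3*, a subunit of related cytokines, fell in WT microglia after MCAO/R (21.8 to 7.33 CPM, −1.57 ± 0.21, adjusted p = 0.000144). Of the 4 other receptors, 1 pair was higher and 1 lower of 34 after MCAO/R in WT (5.88%), 7 were lower of 38 in *Lrg1*-/- mice (18.4%), 2 lower of 32 between the MCAO/R groups (6.25%), 8 higher and 1 lower of 33 between the sham groups (27.3%), and 1 lower of 31 for the interaction (3.23%). *Il31ra*, which encodes the interleukin-31 receptor chain, was higher in sham + *Lrg1*-/- than in sham + WT microglia (13.4 against 3.38 CPM, 2.003 ± 0.28, adjusted p = 0.00034) and endothelial cells (34.2 against 12.2 CPM, 1.49 ± 0.27). The 12 immediate-early genes used as a sign of dissociation gave 8 higher and 13 lower of 132 (15.9%), 3 higher and 36 lower of 167 (23.4%), 4 higher and 41 lower of 132 (34.1%), 13 higher and 32 lower of 132 (34.1%), and 1 higher and 2 lower of 120 (2.5%), in the same order.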

How the data were processed

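Single-cell RNA libraries were prepared with 10x 3' chemistry from the right brain of 1 mouse each. The authors deposited raw UMI counts per gene and cell, made with Cell Ranger (7.0.1 in the file headers, an earlier version in the methods) and STAR on mm10. Cells with more than 500 genes, more than 1000 UMIs and less than 25% mitochondrial UMIs were kept, which left 132,437 of 155,804 barcodes. The 6% of cells per library with the highest doublet scores (7946 cells) were removed. The remaining cells were joined over 2000 variable genes and 15 principal components, with 3 neighbours taken from each library, and clustered with leidenalg 0.10.2 at a resolution of 3. Clusters were named from marker genes, with at least 3 markers needed, and mixed ones were split at a resolution of 1. The naming and splitting rules were set with the clusters in view.

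UMIs were summed per library and cell type. Types with at least 20 cells per library and 2 libraries per group were tested, 15 in all, with edgeR 4.0.16 in R 4.3.3 (filterByExpr, TMM, quasi-likelihood F test, all groups in 1 fit, no block). A call needed an adjusted p below 0.05 and a natural log fold change over 0.25 in size. CPM are TMM-adjusted. P-values measure the spread between 1-mouse libraries. The procedure was tested on simulated data. The low-count filter passed 10 members in microglia, border-associated macrophages and vascular smooth muscle cells, 9 in astrocytes, endothelial cells, oligodendrocytes, pericytes, choroid plexus epithelial and ciliated ependymal cells, 8 in monocytes, neutrophils and neurons, 7 in fibroblast-like cells, 6 in T cells and 4 in red blood cells.

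The members and the lists (genes induced by Stat3, other ligands, other receptors, other Jak and Stat genes, inhibitors, immediate-early genes, 54 pathway genes without the last) were chosen with earlier results of these data known. Of the listed genes, up to 6 called ones per cell type and comparison described, in order of adjusted p, could be named, together with the 5 genes most like *Socs3* and *Osmr*, among genes with a mean of at least 10 CPM somewhere. The 11 alternatives were DESeq2 1.42.0, RLE size factors, no low-count filter, only the groups compared, doublets kept, a limit of 10% mitochondrial UMIs, at least 50 cells per library, types by marker score, cells thinned to 1000 UMIs, no haemoglobin or mitochondrial genes, and the replicate number as a block. Each library was also left out in turn. Promoters came from RefSeq.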

Additional observations from a re-analysis of the deposited data

Results flagged for a closer look

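In 4 cases the log2 fold change after MCAO/R in *Lrg1*-/- mice differed from that in WT mice by the interaction term of the edgeR fit. For *Il6ra* the difference was −1.46 in microglia, −1.49 in border-associated macrophages and −0.94 in endothelial cells. For *Stat3* it was −1.12 in microglia. The microglial values for *Il6ra* and *Stat3* held in all 11 alternatives and without any 1 library. For an interaction the alternative with only the groups compared repeats the main fit, so it is no further check. The value in border-associated macrophages was lost in 9 of 11 fits without 1 library, over which it ranged from −1.78 to −1.16, and the endothelial value in 6 of 11, over which it ranged from −1.07 to −0.86.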

How the results depend on the processing

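Of the 71 calls, 27 were kept in every alternative that tested them and 25 of these also without any 1 library. Haemoglobin and mitochondrial genes left out ended none of the 71, RLE size factors and no low-count filter 2 each, DESeq2 4, doublets kept 11, marker-score types 18 and the replicate number as a block 29. Fewer calls could be tested under the others, of which a limit of 10% mitochondrial UMIs ended 5 of 67, fits of only the groups compared 16 of 68, thinned cells 23 of 59 and at least 50 cells per library 1 of 63. Of the 18 ended by marker-score types, 1 call was reversed, *Osm* in pericytes between the MCAO/R groups, from 1.81 to −0.28, and the cause was not tested.

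The 19 member calls after MCAO/R in WT became 34 without the filter, 35 with marker-score types, 11 in thinned cells and 12 to 18 without 1 library. The 14 in *Lrg1*-/- became 30 without the filter, 8 thinned and 9 to 18 without 1 library. The 21 between the MCAO/R groups became 11 with only those groups fitted, 13 thinned and 9 to 24 without 1 library. The 13 between the sham groups became 23 with only those groups fitted, 4 thinned and 5 to 9 without 1 library. The 4 interactions became 10 without the filter, 2 with marker-score types and 2 to 6 without 1 library. The 366 calls of listed genes became 596 without the filter, 189 thinned and 265 to 409 without 1 library. Unlike the list counts above, these include the calls of *Lrg1* itself, and they leave out the immediate-early genes. Thinning also left fewer pairs to test, and for the other settings the cause was not tested.

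The labels do not say whether replicate numbers pair the libraries. Over 146 pairs with the same number the median correlation of deviations was −0.0015 and 12 were over 0.1, against 51 of 354 with other numbers. Deviations from a group's mean cancel within that group, so this check cannot exclude pairing. With the number as a block the comparisons gave 15, 13, 17, 7 and 2 member calls, in the order above, and 282 for the listed genes.

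*Lif* and *Il6* counts were low, rare types came from few cells, and MCAO/R + WT had 2 libraries, so a member without a call is not shown to be equal between groups.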
